A study of Homo sapiens with 24 samples.

Results

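Collagens, laminins and integrins were followed through the RNA-seq libraries of a human kidney cell line made to express single microRNAs (miRNAs). The genes were chosen by symbol alone: protein-coding genes named as collagen alpha chains (COL, a digit, A), laminin chains (LAMA, LAMB, LAMC) or integrin alpha and beta chains (ITGA, ITGB), without ITGBL and ITGB1BP. This gave 77 of the 29794 genes in the count tables, namely 43 collagen genes, 12 laminin genes, 21 integrin genes and ITGB3BP, which carries the letters of the rule but encodes a centromere protein and is counted with no family. A further gene that meets the rule, COL26A1, was not analysed here. After the filter on low counts, 63 of the 77 could be tested in the first batch of libraries (32 collagens, 11 laminins, 19 integrins and ITGB3BP) and 57 in the second (28, 10, 18 and ITGB3BP).

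Collagens are trimers of alpha chains that form the fibrils and networks of the extracellular matrix, and laminins are trimers of 1 alpha, 1 beta and 1 gamma chain that, with the network-forming type IV collagens, build basement membranes. Integrins are heterodimers of 1 alpha and 1 beta chain in the plasma membrane that bind these proteins and link them to the actin cytoskeleton. A miRNA guides Argonaute proteins mostly to 3′UTRs, pairing through its seed, bases 2 to 8 from its 5′ end, and bound mRNAs are translated less and degraded faster. Matrix genes are known targets of several miRNAs in fibroblasts and epithelia.

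The study asked which changes in mRNA follow from direct pairing with an expressed miRNA. Flp-In T-REx 293 cells, a HEK293 derivative, carried an integrated lentiviral construct with a doxycycline-inducible GFP reporter. In miRNA expressing cells an intron of the reporter held an artificial hairpin for a single miRNA, and in empty vector control cells it held none, so all groups shared the vector, the induction with 1 µg/mL doxycycline for 7 days and the selection with 1 mg/mL Geneticin for 6 days. Polyadenylated RNA from 1000 ng of total RNA was sequenced in 24 libraries. Batch 1 held empty vector, miR-1 and miR-122 cells with n = 2 libraries each, and batch 2 held empty vector cells and cells with miR-133a or miR-155, or with miR-302a, miR-372 or miR-373, with n = 3 each. The replicates were separate transductions of 1 transformed cell line. Empty vector cells of the same batch served as the reference for every miRNA, so comparisons within a batch share their control libraries.

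The mature sequences are shown because the seed, in capitals, decides which 3′UTRs can pair with each miRNA (RefSeq, 5′ to 3′).
miR-1: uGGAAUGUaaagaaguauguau
miR-122: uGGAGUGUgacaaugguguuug
miR-133a: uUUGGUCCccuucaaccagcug
miR-155: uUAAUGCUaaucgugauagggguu
miR-302a: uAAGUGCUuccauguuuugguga
miR-372: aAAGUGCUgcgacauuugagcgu
miR-373: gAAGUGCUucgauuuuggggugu
The last 3 share their seed and are called the miR-302a seed family below. The other 4 seeds differ from it and from each other.

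Libraries held 20153452 to 21595191 counted reads in batch 1 and 13047400 to 35040778 in batch 2. Replicates differed beyond sampling noise in all groups, with chi-square values per degree of freedom from 1.79 to 33.6. The replicate 2 libraries of miR-155, miR-302a and miR-372 stood apart from the other replicates of their groups (values of 15.2 or more in each pair that held them), so counts in batch 2 are also given without these 3 libraries. Genes known from HEK293 cells were present, with the keratin gene KRT8 at 176 to 297 CPM (counts scaled by the library size after TMM normalisation) and VIM at 908 CPM or more. NEFM, another of that list, was low, at 1.26 to 4.42 CPM, and NEFL and LHX1 had no values. Most fibroblast markers were near 0: DCN, LUM, THY1 and FAP had at most 6 reads in any library, and the 6 fibroblast markers summed to 0.511 to 1.69 CPM. PDGFRB had at most 16 reads, and PDGFRA, at 0.235 to 1.25 CPM, passed the count filter in both batches. Of the endothelial and blood cell markers, CDH5, TEK, PTPRC and SPI1 had at most 10 reads. CD34, at no more than 0.614 CPM, passed the filter in batch 1 only. In bulk RNA, fewer cells with a transcript and less transcript per cell cannot be told apart.

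HEK293 empty vector cells expressed a basement membrane set of these genes. Per length of annotated exon, the highest levels in batch 2 were those of ITGB3BP (50.9 ± 7.16 CPM per kb, SD, n = 3), LAMC1 (46.4 ± 4.11), the common integrin beta chain ITGB1 (44.5 ± 0.873), LAMB1 (42.3 ± 1.68) and COL6A1 (36.6 ± 2.31). The median of all genes tested was 8.18 CPM per kb. Neighbours in this order lay within their combined SDs, except that COL6A1 lay below LAMB1 by more than that, and in batch 1 the same 5 genes led with LAMC1 first (50.4 ± 3.63 CPM per kb, n = 2). Type IV collagens followed, with COL4A2 at 34.9 ± 3.94 and COL4A1 at 27.6 ± 2.14 CPM per kb in batch 2. Several partner chains were missing. COL1A1, the alpha 1 chain of fibrillar type I collagen, was at 12.3 CPM in both batch 1 control libraries, while COL1A2, which encodes its usual partner, had at most 2 reads in any of the 24 libraries. COL6A1 and COL6A2 were expressed, but COL6A3, the third classical chain of type VI collagen, had at most 9 reads. In all, 14 members stayed below the filter in both batches (COL1A2, COL6A3, COL6A5, COL6A6, COL8A2, COL10A1, COL11A1, COL15A1, COL16A1, COL22A1, COL28A1, LAMB4, ITGB6 and ITGB7), and 6 passed in batch 1 only (COL5A3, COL8A1, COL9A1, COL20A1, LAMA2 and ITGB3). COL8A1 passed through its empty vector libraries alone.

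**Figure D1:**
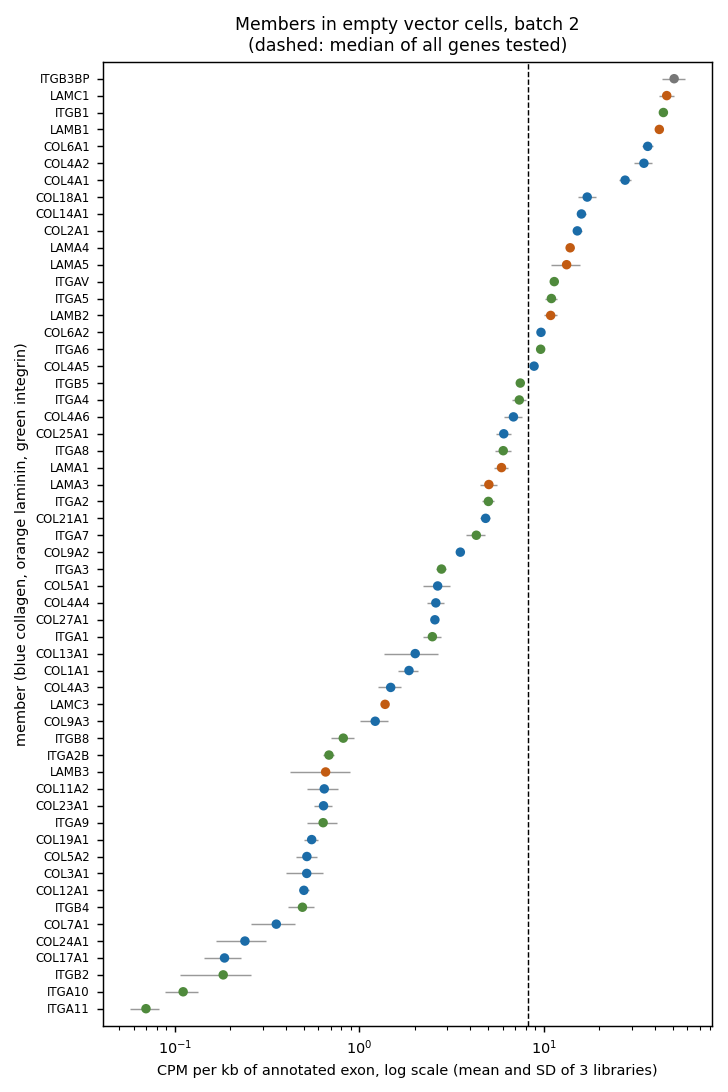
Mean level of the tested members (1 of the 57 is not shown) in the 3 empty vector libraries of batch 2, in CPM per kb of annotated exon on a log axis, with the SD as a grey line (blue collagens, orange laminins, green integrins, grey ITGB3BP). ITGB3BP, LAMC1, ITGB1, LAMB1 and COL6A1 lie highest, and the dashed line marks the median of all genes tested, 8.18 CPM per kb.

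Calls below are adjusted p under 0.05 from edgeR's quasi-likelihood test over all genes of the batch, and fold changes are log2 values with their SE. Over the 7 comparisons with empty vector cells, 411 pairs of a member and a miRNA were tested, and 88 were called: 76 lower and 12 higher in the miRNA cells. Of the 63 members, 39 were called at least once and 13 at least 3 times. COL2A1, the chain of the cartilage fibril collagen, was called in all 7. In all, 5 members were called in both directions with different miRNAs. Of the 88 calls, 47 held under all alternatives run and 41 were lost when at least 1 single library was left out. No call changed its sign under any of them.

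**Figure D2:**
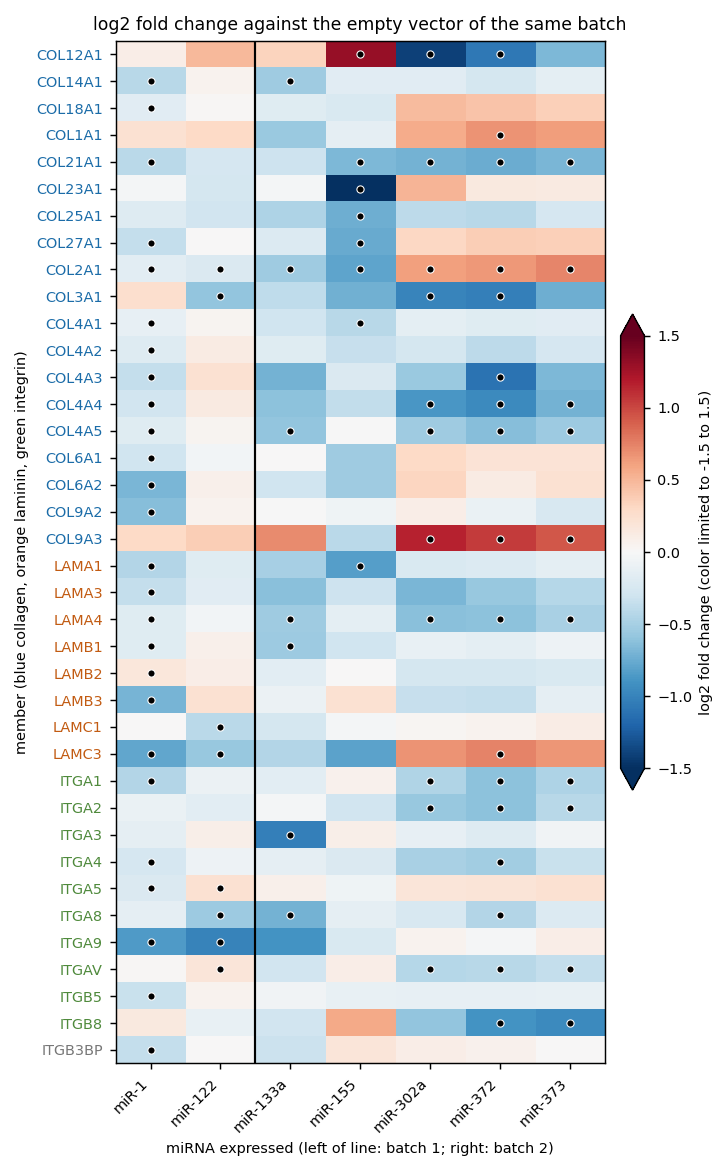
log2 fold change of members called at least once (rows; 1 of the 39 is not shown) in each miRNA against the empty vector of the same batch (columns; black line between the batches). Black dots mark calls at adjusted p under 0.05, most of which were lower, and color runs from blue (lower) to red (higher) and is limited to -1.5 to 1.5.

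miR-1 is a muscle miRNA. In miR-1 expressing cells 27 of 63 members were called, 26 lower and 1 higher, where 24.5% of all 14348 genes were called, 13.7% lower and 10.8% higher. The members' median log2 fold change was -0.16 against 0.00 for all genes. By family, 13 of 32 collagens and 5 of 19 integrins were called, all lower, and of 11 laminins 7 were lower and 1, LAMB2, higher. COL6A2, a chain of the microfibril-forming type VI collagen, was at 42.8 and 43.4 CPM in empty vector cells and at 26.3 and 27.5 CPM with miR-1. Both miR-1 libraries lay well under both controls, a log2 change of -0.68 (SE 0.06, adjusted p = 2.19e-07). Its partner COL6A1 changed less, by -0.30 (SE 0.04, adjusted p = 4.93e-05).

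Among the calls with miR-1, those of laminin genes were among the largest. LAMC3, a gamma chain with restricted expression, fell from 12 and 10.3 CPM to 6.86 and 6.08 CPM, with no overlap (log2 -0.78, SE 0.12, adjusted p = 0.000119). LAMA3 and LAMB3, which encode chains found in epithelial basement membranes, were lower too. LAMB3 was at 3.09 and 2.74 CPM in controls and 2.05 and 1.54 CPM with miR-1 (log2 -0.69, SE 0.22, adjusted p = 0.0285), and LAMA3 changed by -0.36 (adjusted p = 0.004). The only member called higher, LAMB2, rose from 73.4 and 66.3 CPM to 75.3 and 82.3 CPM, a log2 change of 0.17 (SE 0.06, adjusted p = 0.0311). LAMC1, the most abundant laminin gene, was at 421.9 and 381.0 CPM in controls and 399.0 and 409.3 CPM with miR-1, so its groups overlapped.

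Among the collagens and integrins, the changes with miR-1 were mostly modest. ITGA9, which pairs with ITGB1 in a receptor for tenascin and other ligands, was at 6.33 and 5.58 CPM in controls and 3.22 and 3.38 CPM with miR-1 (log2 -0.85, SE 0.15, adjusted p = 0.000496). COL9A2, a chain of cartilage type IX collagen, went from 8.56 and 8.84 CPM to 5.65 and 5.50 CPM (log2 -0.64, SE 0.12, adjusted p = 0.000703). Both lay below their controls without overlap. COL14A1, a fibril-associated collagen, changed by -0.41 and COL21A1, another of that group, by -0.40 (adjusted p = 6.86e-06 and 0.000723). ITGA1, the alpha chain of a collagen receptor, changed by -0.44 (adjusted p = 0.000316), ITGB5 by -0.34, ITGA4 by -0.25 and ITGA5, the alpha chain of the fibronectin receptor, by -0.21 (adjusted p = 0.000597, 0.00526 and 0.00705). The type IV collagen genes COL4A1 to COL4A5 were each called lower, by 0.12 to 0.36 on the log2 scale, but COL4A2 alone of these kept its call throughout. COL4A1 lost it in 8 of 13 alternatives, without 3 of the 4 libraries among them (adjusted p up to 0.335), and COL4A3, COL4A4 and COL4A5 lost it without miR-1 replicate 1 (up to 0.226) and with DESeq2, the first 2 also without empty vector replicate 1 (up to 0.178). Here 15 of the 27 calls held under all alternatives, and DESeq2's Wald test called 16 members in place of 27, beside 12.4% of all genes. ITGA5 lost its call with DESeq2 and without miR-1 replicate 2, and ITGA4 without miR-1 replicate 1. LAMB3, LAMB2 and LAMA3 were among the calls lost on leaving out a library: LAMB3 without empty vector replicate 1 or miR-1 replicate 2 (adjusted p up to 0.231), LAMB2 without empty vector replicate 2 or miR-1 replicate 2 (up to 0.29) and LAMA3 without miR-1 replicate 1 (0.0727). COL2A1 lost its call without any single one of 3 libraries, empty vector replicate 1 or either miR-1 replicate (up to 0.255), and with DESeq2.

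miR-122 is the main miRNA of hepatocytes. With miR-122, 8 of 63 members were called, 6 lower and 2 higher, beside 5.92% of all genes (4.06% lower and 1.86% higher), and the members' median log2 fold change was 0.01. LAMC1, the gamma chain shared by most laminins, was at 421.9 and 381.0 CPM in controls and 301.9 and 303.7 CPM in miR-122 cells, lower in both libraries (log2 -0.41, SE 0.04, adjusted p = 3.85e-06). ITGA9 was at 2.86 and 3.10 CPM with miR-122, about where it stood with miR-1 (log2 -0.997, SE 0.16, adjusted p = 0.000326). ITGA8, the alpha chain of a nephronectin receptor needed for kidney outgrowth, went from 45.6 and 42.7 CPM to 29.8 and 30.7 CPM (log2 -0.55, SE 0.07, adjusted p = 2.30e-05). None of these 3 groups overlapped its controls, and all 3 calls held under each alternative. LAMC3 (log2 -0.57, adjusted p = 0.00559), COL3A1, a fibrillar collagen of soft tissues (log2 -0.60, adjusted p = 0.0349), and COL2A1 (log2 -0.22, adjusted p = 0.00957) were the others called lower. ITGA5 rose by 0.23 and ITGAV, the alpha chain of several vitronectin receptors, by 0.18 (adjusted p = 0.0113 and 0.0286).

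The number of calls with miR-122 depended on single libraries. It was 14 without empty vector replicate 2, 5 without miR-122 replicate 1 and 3 without miR-122 replicate 2, and DESeq2's Wald test called 3, beside 10.9%, 2.18%, 2.89% and 2.86% of all genes. With offsets for the trends of each library on GC content and gene length it was 16, of which 6 were lower and 10 higher, beside 8.54% of all genes, so the excess of lower calls was not kept there. The calls of COL2A1 and ITGA5 were lost without either miR-122 replicate (adjusted p up to 0.145 and 0.124), that of LAMC3 without replicate 2 (0.0962), that of ITGAV without that library or empty vector replicate 1 (up to 0.289), and that of COL3A1 without either replicate or without empty vector replicate 2 (up to 0.332).

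**Figure D3:**
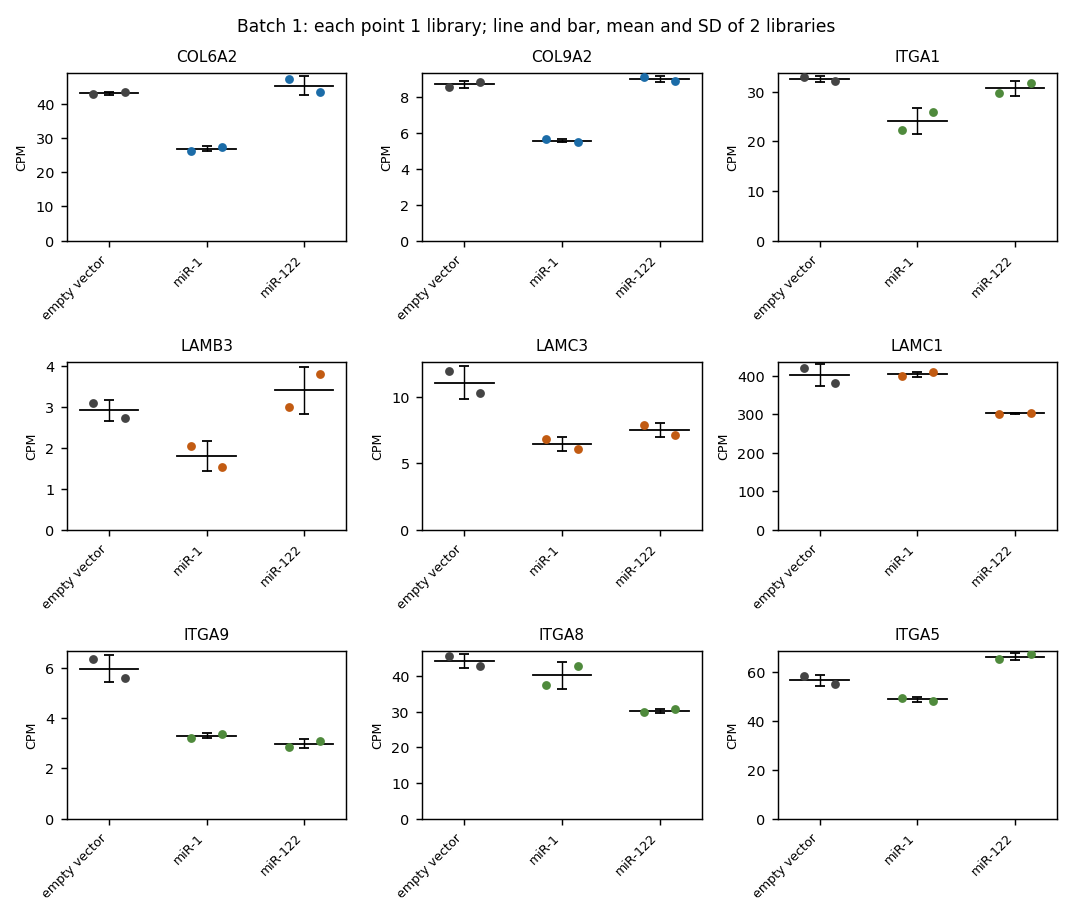
CPM of 9 members in every batch 1 library (grey empty vector, colored miRNA cells; line and bar are the mean and SD of 2 libraries; axes start at 0). COL6A2, COL9A2, ITGA1 and LAMB3 were called lower with miR-1 only, LAMC1 and ITGA8 lower with miR-122, LAMC3 and ITGA9 lower with both, and ITGA5 is lower with miR-1 and higher with miR-122.

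Setting the batch 1 miRNAs directly against each other, 27 of 63 members were called between miR-1 and miR-122 cells, 22 lower and 5 higher in miR-1 cells, beside 31.2% of all genes (16% lower and 15.2% higher). The 5 higher members included LAMC1 (log2 0.42, SE 0.04, adjusted p = 8.42e-07), ITGA8 (log2 0.41, SE 0.07, adjusted p = 0.000161) and COL3A1 (log2 0.85, SE 0.16, adjusted p = 0.000429). LAMB3 (log2 -0.92, SE 0.22, adjusted p = 0.00292), COL6A2 (log2 -0.75, SE 0.06, adjusted p = 2.77e-08) and ITGA5 (log2 -0.44, SE 0.05, adjusted p = 3.71e-06) were lower with miR-1. The opposite changes of ITGA5 against empty vector were thus also called as a difference between the miRNAs. ITGA9 and LAMC3, lower with both, were not called between them.

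miR-133a is the other main miRNA of muscle. In miR-133a cells 7 of 57 members were called, all lower, beside 5.34% of all 14054 genes (3.97% lower and 1.37% higher). The members' median was -0.25 against 0.00 over all genes, and all 10 laminins had fold changes below 0, although only LAMA4 and LAMB1 were called. ITGA3, the alpha chain of a laminin receptor, was at 13.4, 15 and 13.5 CPM in empty vector cells and 6.22, 7.37 and 7.05 CPM in miR-133a cells. All 3 miR-133a libraries lay near 7 CPM, below each library of the 5 other groups of the batch, whose lowest was 9.47 CPM (log2 -1.02, SE 0.16, adjusted p = 0.000457). ITGA8 went from 39.9, 45.2 and 37.1 CPM to 27.7, 21.9 and 25 CPM (log2 -0.71, SE 0.12, adjusted p = 0.000623).

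The basement membrane genes called with miR-133a were abundant ones. LAMB1 was at 284.2, 287.7 and 266.9 CPM in controls and 195.2, 184.2 and 196.7 CPM with miR-133a (log2 -0.54, SE 0.10, adjusted p = 0.00251). LAMA4, an alpha chain of endothelial and mesenchymal laminins, was at 110.0, 120.1 and 111.4 CPM and then 80.8, 72.7 and 82.7 CPM (log2 -0.53, SE 0.09, adjusted p = 0.000602). Neither gene's groups overlapped. COL4A5, a chain of the kidney type IV network, changed by -0.59 (SE 0.12, adjusted p = 0.00452), COL14A1 by -0.54 (SE 0.12, adjusted p = 0.00831) and COL2A1 by -0.53 (SE 0.12, adjusted p = 0.014). The calls of COL14A1 (without miR-133a replicate 2, adjusted p = 0.0538) and COL2A1 (without empty vector replicate 2 or miR-133a replicate 1, up to 0.0762) were lost on leaving out a library, and the other 5 were kept throughout. The count of 7 rose to 12 with DESeq2's Wald test, to 24 when only these 2 groups were fitted and to 19 without the 3 libraries that stood apart, while the share of all genes called rose from 5.34% to 7.26%, 17.3% and 16.1%.

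miR-155 is a miRNA of activated immune cells. With miR-155, 8 of 57 members were called, beside 7.63% of all genes (4.81% lower and 2.82% higher): 6 collagens and LAMA1 lower and COL12A1 higher, and 0 of the 18 integrins. Of these integrins, 3 had an unadjusted p under 0.05 in edgeR's test, and DESeq2's Wald test called 0. Other alternatives called 3 of them, all higher: ITGB8 (log2 0.57, adjusted p = 0.0968) in 6, ITGA1 in 2 and ITGAV in 1, with adjusted p down to 0.00144, 0.0293 and 0.0149. COL12A1, a fibril-associated collagen, was at 6.45, 5.73 and 6.29 CPM in empty vector cells and 19.7, 8.57 and 17.3 CPM with miR-155. All 3 miR-155 libraries were higher than the controls, replicate 2 by far the least (log2 1.31, SE 0.25, adjusted p = 0.00269). COL23A1, a transmembrane collagen, was low throughout and lowest here, with 32, 29 and 31 reads in controls and 8, 3 and 7 with miR-155 (log2 -2.33, SE 0.54, adjusted p = 0.0105). COL2A1 went from 73.4, 81.8 and 75.9 CPM to 51.2, 32.1 and 50.6 CPM (log2 -0.79, SE 0.13, adjusted p = 0.000483).

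Other collagens lower with miR-155 were COL27A1, a fibrillar collagen of cartilage (log2 -0.75, SE 0.17, adjusted p = 0.0105), COL25A1, a transmembrane collagen (log2 -0.74, SE 0.21, adjusted p = 0.0345), COL21A1 (log2 -0.67, SE 0.15, adjusted p = 0.00775) and COL4A1 (log2 -0.42, SE 0.10, adjusted p = 0.0104). LAMA1, the alpha chain of the earliest embryonic laminin, was at 56.3, 62.3 and 52.2 CPM in controls and 37.7, 21.8 and 36.4 CPM with miR-155 (log2 -0.83, SE 0.20, adjusted p = 0.0164). Replicate 2 of miR-155, which stood apart, was the lowest of its group for each of these genes except COL21A1. Without it 3 members were called in place of 8, and 5 without empty vector replicate 2, beside 3.62% and 3.48% of all genes. COL12A1, COL21A1 and COL2A1 kept their calls under all alternatives, whereas COL23A1, COL27A1, COL25A1, COL4A1 and LAMA1 lost theirs without that replicate (adjusted p up to 0.163), and COL4A1 and LAMA1 also without empty vector replicate 2 (up to 0.0747). COL25A1 lost its call without 5 of the 6 libraries, all but miR-155 replicate 1, and both COL25A1 and COL4A1 lost theirs when only the groups compared were fitted (0.0577 and 0.0502). When it was left out together with the miR-302a and miR-372 replicates that stood apart, 10 members were called and all 8 of these were among them, beside 8.21% of all genes.

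Members of the miR-302a seed family are miRNAs of embryonic stem cells. Against empty vector cells, 11 of 57 members were called with miR-302a (9 lower), 17 with miR-372 (13 lower) and 10 with miR-373 (8 lower), beside 7.88%, 11.4% and 5.13% of all genes. Over all genes, 4.85%, 6.56% and 3.3% were lower and 3.02%, 4.82% and 1.83% higher with these 3 miRNAs. For the mean of the 3 groups the count was 19, with 14 lower and 5 higher, beside 15.4% of all genes (9.11% lower and 6.28% higher). The median over members was -0.14 and that over all genes 0.00. Between the 3 miRNAs, 0 of the 57 members were called in any pair by edgeR or by DESeq2, where edgeR called 0 of all 14054 genes in each pair and DESeq2 called 0, 3 and 1. For the members, at an unadjusted p under 0.05 there were 0 (miR-302a against miR-372), 1 and 1 (either against miR-373). The 3 groups share their controls, and the count for the mean was 12 without empty vector replicate 1, beside 8.13% of all genes.

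COL2A1 rose with the seed family. Its levels were 120.6, 110.2 and 122.9 CPM with miR-302a, 120.8, 109.0 and 131.7 CPM with miR-372 and 125.3, 126.6 and 131.1 CPM with miR-373, against 73.4 to 81.8 CPM in controls. Each of the 9 libraries was above each control, while those of miR-133a and miR-155 were all below (log2 for the mean 0.66, SE 0.10, adjusted p = 0.000208). COL9A3, a type IX collagen chain found with type II collagen in cartilage, was at 2.70, 2.90 and 3.71 CPM in controls and 4.88 to 8.14 CPM in the 9 libraries, again without overlap (log2 1.05, SE 0.20, adjusted p = 0.00124), though its call with miR-373 alone was lost without 4 of the 6 libraries (adjusted p up to 0.109). COL1A1 (log2 0.62, SE 0.16, adjusted p = 0.0157), LAMC3 (log2 0.69, SE 0.19, adjusted p = 0.0188) and COL18A1, the source of endostatin (log2 0.42, SE 0.12, adjusted p = 0.0267), were the other members higher for the mean. Those 3 calls were lost without empty vector replicate 1, COL18A1 and LAMC3 also without replicate 2, and COL1A1 and LAMC3 also without replicate 3 (adjusted p up to 0.163).

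COL12A1 went the other way than with miR-155. It was at 2.53, 2.13 and 2.36 CPM with miR-302a (log2 -1.40, SE 0.30, adjusted p = 0.0064), 3.37, 1.80 and 3.33 CPM with miR-372 (log2 -1.08, SE 0.28, adjusted p = 0.0185) and 4.09, 2.95 and 4.38 CPM with miR-373, where the change of -0.67 was not called. All 9 libraries lay below the 3 controls, and the call with miR-372 was lost without empty vector replicate 1 or 3 or miR-372 replicate 2 (adjusted p up to 0.0659). COL21A1 was at 21.4 to 24.2 CPM in controls and 11.1 to 15.9 CPM in the 9 libraries, called with each of the 3 miRNAs (log2 -0.71, -0.74 and -0.68; adjusted p = 0.00539, 0.00255 and 0.00789). COL3A1, at 2.31 to 3.60 CPM in controls, was at 1.40, 1.34 and 1.60 CPM with miR-302a and 1.30, 0.626 and 2.00 CPM with miR-372. It changed by -0.99 and -1.03 with miR-302a and miR-372 (adjusted p = 0.0459 and 0.0267), but the first call was lost without any single one of its 6 libraries and the second without 4 of 6 (adjusted p up to 0.183).

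The type IV collagen genes lie in head-to-head pairs, and COL4A3, COL4A4 and COL4A5 were called lower with miRNAs of the seed family. On GRCh37, COL4A3 and COL4A4 on chromosome 2 start 171 bases apart on opposite strands, COL4A5 and COL4A6 on the X chromosome 341 bases apart and COL4A1 and COL4A2 on chromosome 13 1345 bases apart, by the gene starts of the annotation. The first 2 pairs have a gap between their starts, whereas COL4A2 starts within COL4A1, so these genes overlap on opposite strands. COL4A4 was at 23.3, 28.5 and 25.4 CPM in controls and 12.8, 15.4 and 13.8 CPM with miR-302a (log2 -0.88, SE 0.20, adjusted p = 0.0093), with changes of -0.95 and -0.71 with miR-372 and miR-373 (adjusted p = 0.00354 and 0.035). COL4A3 was called with miR-372 (log2 -1.11, SE 0.31, adjusted p = 0.0245). COL4A5 was at 56.4 to 59.5 CPM in controls and 30.6 to 42.8 CPM in the 9 libraries (log2 -0.54, -0.64 and -0.55; adjusted p = 0.00817, 0.00151 and 0.00843). COL4A6, COL4A1 and COL4A2 were not called for the mean, with log2 changes of -0.34, -0.16 and -0.30 (adjusted p = 0.0827, 0.161 and 0.0532), and COL4A2 was called lower in 2 alternatives with miR-302a, 7 with miR-372 and 3 with miR-373. The changes of the chains were not compared with each other. COL4A5 with each miRNA and COL4A4 with miR-372 kept their calls throughout. COL4A4 lost its call without miR-302a replicate 1 (adjusted p = 0.055) and, with miR-373, without 5 of 6 libraries (up to 0.14), and COL4A3 with miR-372 without 4 of 6 (up to 0.0949).

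LAMA4 was the one laminin called lower with each of the 3. Its levels were 77.3, 73.6 and 69.5 CPM with miR-302a, 76.4, 63.9 and 81.7 CPM with miR-372 and 78.1, 84.8 and 80.8 CPM with miR-373, all below the controls at 110.0 to 120.1 CPM (log2 -0.63, -0.62 and -0.49; adjusted p = 0.000127, 0.000116 and 0.00184). Those calls held throughout.

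All integrin genes called with the seed family were lower. Of 18, 7 were called for the mean: ITGA1, ITGA2, ITGA4, ITGA8, ITGAV, ITGB4 and ITGB8. ITGA2, the alpha chain of another collagen receptor, was at 36.0 to 41.4 CPM in controls and 23.0 to 30.8 CPM in the 9 libraries (log2 -0.53, SE 0.08, adjusted p = 0.000113). ITGA1 was at 22.7 to 28.3 CPM and then 15.5 to 19.8 CPM (log2 -0.51, SE 0.08, adjusted p = 0.000354). ITGAV was at 84.8 to 88.4 CPM and then 56.1 to 74.5 CPM (log2 -0.40, SE 0.07, adjusted p = 0.000604). These 3 genes were called with each of the 3 miRNAs. ITGB8, which pairs with the ITGAV chain in a receptor that activates latent TGF-beta, was at 8.70, 6.52 and 7.41 CPM in controls, 5.61, 3.36 and 6.25 CPM with miR-302a, 3.76, 2.98 and 5.06 CPM with miR-372 and 3.55, 3.49 and 4.44 CPM with miR-373. All 9 were below the lowest control, and the change was called with miR-372 (log2 -0.90, SE 0.22, adjusted p = 0.0121) and miR-373 (log2 -0.95, SE 0.22, adjusted p = 0.0137) but not with miR-302a (log2 -0.59, SE 0.22, adjusted p = 0.107). With miR-373, ITGA1, ITGA2, ITGAV and ITGB8 each lost the call without 3 to 5 of the 6 libraries (adjusted p up to 0.123), and ITGB8 with miR-372 lost it without empty vector replicate 1 (0.0643). ITGA1 with miR-302a lost it without empty vector replicate 2 or miR-302a replicate 1 (up to 0.0771) and with the GC content and length offsets described below (0.0585). ITGA4, ITGA8 and ITGB4, of which ITGA8 and ITGB4 overlapped their controls, also lost theirs for the mean without empty vector replicate 1 or 2 (up to 0.251).

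**Figure D4:**
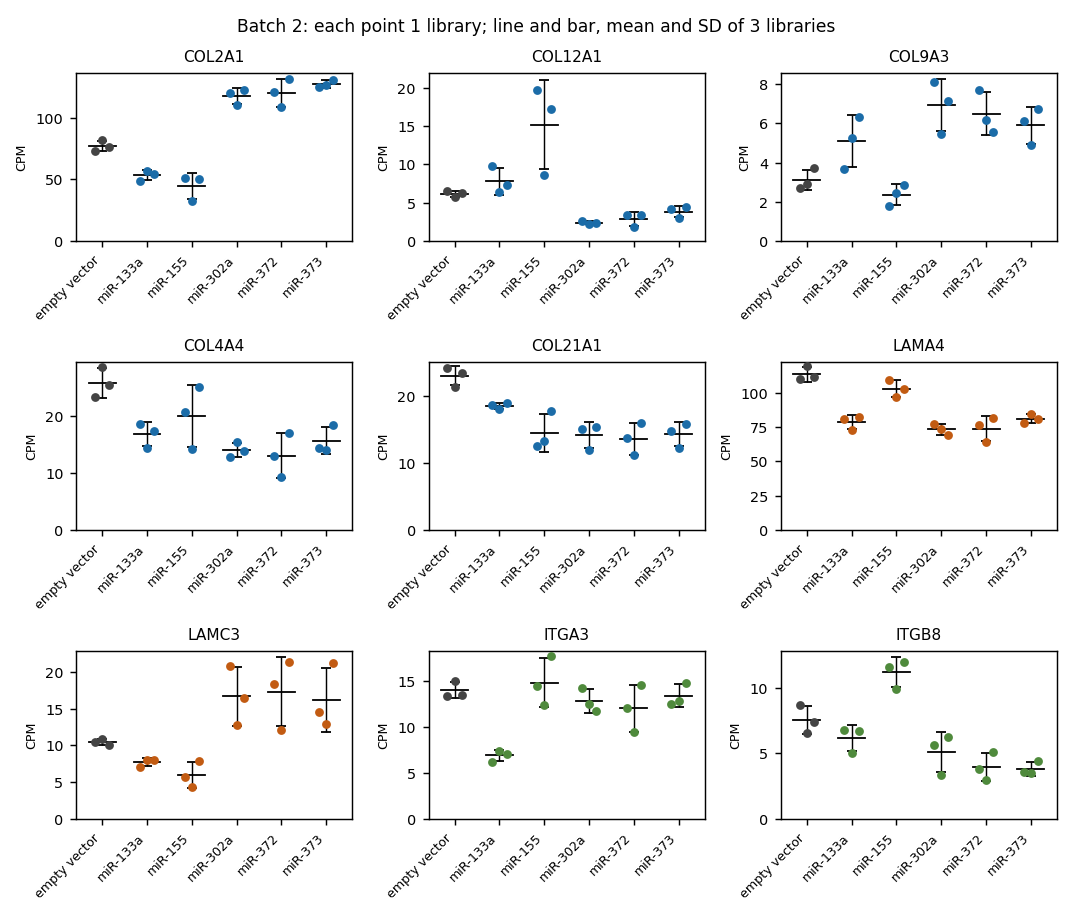
CPM of 9 members in every batch 2 library (grey empty vector, colored miRNA cells; line and bar are the mean and SD of 3 libraries; axes start at 0). COL2A1, COL9A3 and LAMC3 lie above the controls with miR-302a, miR-372 and miR-373, COL12A1, COL4A4, COL21A1, LAMA4 and ITGB8 below them, and ITGA3 is lowest with miR-133a.

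Counts with the seed family depended on the libraries. Without the 3 that stood apart, 28 members were called with miR-302a, 22 with miR-372, 23 with miR-373 and 34 for the mean, beside 24.2%, 14.2%, 12% and 27% of all genes, and of the called pairs in batch 2 one, COL3A1 with miR-372, was lost. With miR-372 the count was 10 without empty vector replicate 1, beside 6.03% of all genes. With miR-373 it was 5 without empty vector replicate 1 or 2, 4 without miR-373 replicate 1 and 6 without replicate 3, beside 2.44%, 2.68%, 2.94% and 2.48%.

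Fold changes in the seed family moved with base composition and length. GC content was that of the longest annotated transcript of a gene, protein-coding where there was one, and exon length was that given with the counts. Across members the Spearman correlation of the log2 fold change for the mean with GC content was 0.56 and with exon length -0.39 (57 genes, which share libraries and are not independent). Over 13769 genes with a GC value they were 0.30 and -0.30. Among the members with a GC content of 41.9% or less, 5 of 9 members were called lower and 0 higher, and among those at 56.9% or more, 1 of 24 lower and 5 higher. Median GC content was 44.7% for members called lower and 62.5% for those called higher, against 53.2% for all members tested. With offsets for both trends, the calls were 10 lower and 6 higher with miR-302a, 15 and 8 with miR-372, 8 and 6 with miR-373, and 17 and 9 for the mean. The shares of all genes called rose as well, from 7.88%, 11.4%, 5.13% and 15.4% to 9.98%, 14.3%, 7.71% and 18.8%. Of the 19 calls for the mean, 18 were kept, and ITGA8 was lost. The part of base composition and length in the called changes was not tested further. In miR-1 cells the correlation with GC content across 63 members was 0.13, and in miR-155 cells -0.26 across 57. Length trends were also seen outside the seed family. Over all genes, the correlation with exon length was -0.38 (miR-155), -0.28 (miR-133a), -0.21 (miR-122) and -0.05 (miR-1). Across members it was 0.06, -0.30, -0.12 and 0.05 in that order. Median exon length was 6450 bases for members and 3620 for all genes tested with miR-133a and miR-155. The part of length in the members' medians with these miRNAs was not tested further.

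**Figure D5:**
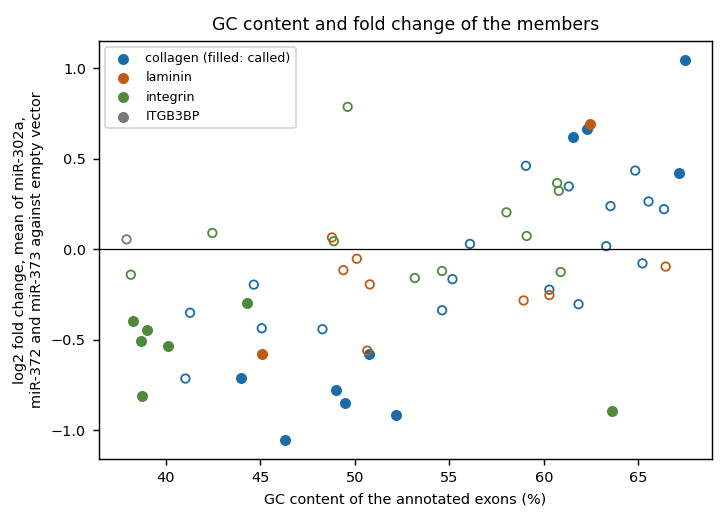
GC content of the longest annotated protein-coding transcript (x axis, labelled annotated exons, %) against the log2 fold change for the mean of the 3 groups of the miR-302a seed family over empty vector (y axis) for the 57 members tested in batch 2. Filled points are the 19 called members; those called lower have a median GC content of 44.7% and those called higher 62.5%.

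Between miR-133a and miR-155 cells, 14 of 57 members were called, 9 lower and 5 higher with miR-133a, beside 16.7% of all genes (8.61% lower and 8.14% higher). ITGA3 (log2 -1.11, SE 0.16, adjusted p = 7.39e-05), ITGA8 (log2 -0.58, SE 0.12, adjusted p = 0.00158) and COL4A5 (log2 -0.59, SE 0.12, adjusted p = 0.00176) were lower with miR-133a, and COL23A1 (log2 2.30, SE 0.54, adjusted p = 0.00566) was higher. With replicate number as a block, which pairs the libraries of these 2 groups, 19 were called, 10 lower and 9 higher, beside 21.7% of all genes. All 14 were among them. Between the mean of the seed family and the mean of miR-133a and miR-155, 29 of 57 were called, 9 lower and 20 higher, beside 27.8% of all genes (13.5% lower and 14.3% higher). COL12A1 (log2 -1.87, SE 0.17, adjusted p = 1.47e-07) and ITGB8 (log2 -0.95, SE 0.14, adjusted p = 3.81e-05) were lower with the seed family. COL2A1 (log2 1.32, SE 0.08, adjusted p = 9.08e-10) and LAMC3 (log2 1.32, SE 0.16, adjusted p = 3.84e-06) were higher, with LAMC3 at 12.1 to 21.3 CPM in the 9 seed family libraries and 4.28 to 8 CPM in the other 6.

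Seed matches in the longest annotated 3′UTR of each member (GENCODE release 44 on GRCh37) were searched on the transcript strand. A 7mer-m8 match pairs with bases 2 to 8 of the miRNA and an 8mer has in addition an A opposite base 1, giving AGCACTT and AGCACTTA for the seed family, GGACCAA and GGACCAAA for miR-133a, AGCATTA and AGCATTAA for miR-155, ACATTCC and ACATTCCA for miR-1, and ACACTCC and ACACTCCA for miR-122. An 8mer holds a 7mer-m8 and was counted once. A 7mer-A1 match pairs with bases 2 to 7 and has an A opposite base 1. The windows of 30 bases below are shown because they carry the matches of the members that changed, or did not, with their miRNA. The match is in capitals and positions are of the window, on GRCh37.
ITGA3 with miR-133a, chr17:48166603-48166632, plus strand: tggcagactcgGGACCAAtactactgacgt
ITGA3 with miR-133a, chr17:48167377-48167406, plus strand: cagagaggaggGGACCAAttctggacagac
LAMC1 with miR-122, chr1:183114404-183114433, plus strand: ataccttaattACACTCCcgcaacacagcc
LAMC1 with the seed family, chr1:183113906-183113935, plus strand: cattttgactgAGCACTTAgggcatcagga
ITGB8 with the seed family, chr7:20449839-20449868, plus strand: agtgtcgttgtAGCACTTtactgtaatata
ITGB8 with the seed family, chr7:20451672-20451701, plus strand: tgctgtcttccAGCACTTgagttaaagtac
ITGB8 with the seed family, chr7:20451818-20451847, plus strand: ctctacagccaAGCACTTtcaatgctaact
ITGA2 with the seed family, chr5:52389425-52389454, plus strand: agtatttctcaAGCACTTttaagcaaaggt
COL21A1 with miR-155, chr6:55922233-55922262, minus strand: cttggattagcAGCATTAAttaaatctcaa
COL4A4 with miR-155, chr2:227869795-227869824, minus strand: tctctaaatgcAGCATTAAcactgccctct
LAMC3 with miR-1, chr9:133967253-133967282, plus strand: tgcccatacagACATTCCccggagccggct
COL4A2 with miR-122, chr13:111010796-111010825, plus strand: taaataggagtACACTCCAaaataacaata
A match describes the letters of these 3′UTRs and is not a measured site. For COL4A2 the longest annotated 3′UTR belongs to a transcript that ends well before the gene does. Its 8mer and 7mer-m8 matches lie between chr13:111010807 and 111013831, while the gene runs on to 111165556. They may be absent from the full-length COL4A2 mRNA, and they are included in the counts below.

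Members with an 8mer or 7mer-m8 match were a minority of those called. Among 63 members, 6 held an 8mer or 7mer-m8 for miR-1 (9.52%, against 14.4% of all tested genes with a 3′UTR) and 8 for miR-122 (12.7% against 9.66%). Among 57, 6 held one for miR-133a (10.5% against 9.11%), 5 for miR-155 (8.77% against 13.0%) and 9 for the seed family (15.8% against 26.4%). Of members called lower, those with a match were 2 of 26 with miR-1 (LAMC3 and COL4A3), 2 of 6 with miR-122 (LAMC1 and LAMC3), 1 of 7 with miR-133a (ITGA3) and 2 of 7 with miR-155 (COL21A1 and COL25A1). With the seed family they were ITGA2 with all 3 miRNAs and ITGB8 with miR-372 and miR-373. Over all genes, 30.6% of those with a match for miR-1 were called lower against 11.7% without, and the shares were 18.8% against 2.77% for miR-122, 18.4% against 2.71% for miR-133a, 20% against 2.83% for miR-155, and 12.4% against 4.92% for miR-372. The same shares among members rest on few match holders. They were 33.3% against 42.1% for miR-1, 25% against 7.27% for miR-122 and 16.7% against 11.8% for miR-133a. For miR-155 they were 40% against 9.62%. With miR-302a, miR-372 and miR-373 they were 11.1% against 16.7%, 22.2% against 22.9% and 22.2% against 12.5%. Counting 7mer-A1 matches too, 5 of 26 members called lower held a match with miR-1, 3 of 6 with miR-122 and 2 of 7 each with miR-133a and miR-155. ITGA8 with miR-122 and miR-133a, and COL4A4 with all 3 of the seed family, were among those added. Of all genes with any of these matches, 26.4% were called lower with miR-1 against 10.6% without. These shares were 10.2% against 2.3% with miR-122, 14.2% against 2.05% with miR-133a and 17.7% against 2.06% with miR-155.

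Members with a match were not all called. LAMC1 holds both a 7mer-m8 for miR-122, with which it was lower, and an 8mer for the seed family, with which it was at 353.8, 425.2 and 353.8 CPM (miR-302a), 386.8, 334.3 and 433.5 CPM (miR-372) and 376.4, 424.2 and 395.0 CPM (miR-373) against 344.2, 406.8 and 358.6 CPM in controls. These groups overlapped, with log2 changes of 0.03, 0.06 and 0.11 (SE 0.11 each, adjusted p = 0.899, 0.77 and 0.673). COL4A2, with an 8mer for miR-122 in the early-ending transcript searched, was at 210.9 and 204.9 CPM in controls and 231.6 and 221.7 CPM with miR-122 (log2 0.12, SE 0.04, adjusted p = 0.0859). COL4A2 also holds, in the same early-ending 3′UTR, an 8mer and a 7mer-m8 for the seed family. Whether the counted COL4A2 mRNA carries any of these matches was not tested. With miR-302a, miR-372 and miR-373 it changed by -0.26, -0.39 and -0.25 (SE 0.13 each, adjusted p = 0.226, 0.055 and 0.318), all libraries below the controls. Other 8mer holders not called were COL19A1 with miR-155 (log2 -0.47, adjusted p = 0.426), ITGA11 with miR-122 (log2 -0.66, adjusted p = 0.433) and COL20A1 with miR-1 (log2 1.03, adjusted p = 0.153). COL4A4, with an 8mer for miR-155, changed by -0.37 (SE 0.19, adjusted p = 0.254) with that miRNA. COL25A1, with an 8mer and a 7mer-m8 for miR-1, changed by -0.20 (SE 0.10, adjusted p = 0.163) with miR-1. LAMA3, with 3 7mer-m8 matches for the seed family, changed by -0.68, -0.57 and -0.42 (SE 0.26 each, adjusted p = 0.116, 0.162 and 0.422), all libraries below the controls, and was called lower in 5, 4 and 2 of the alternatives (adjusted p down to 0.00017, 0.00224 and 0.00763). COL2A1, called with all 7 miRNAs, holds no 8mer or 7mer-m8 match for any of them in its annotated 3′UTR.

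Genes that act on or with these proteins were taken from lists chosen with earlier results known. Their counts stand against the shares of all genes called, 24.5% with miR-1, 5.92% with miR-122, 5.34% with miR-133a, 7.63% with miR-155 and 15.4% for the mean of the seed family. Of 28 genes tested for collagen biosynthesis and crosslinking, 14 were called with miR-1, all lower (median log2 -0.26), led by PPIB, a prolyl isomerase of the collagen-folding endoplasmic reticulum (log2 -0.47, adjusted p = 1.09e-07). With miR-122, 4 were called, SERPINH1, the collagen chaperone, lower by 0.27 (adjusted p = 0.000729) and 3 higher, up to P4HA2, a prolyl hydroxylase subunit (log2 0.40, adjusted p = 0.000351). For the mean of the seed family, 4 were lower and 4 higher, from LOX, the collagen crosslinking oxidase (log2 -0.62, adjusted p = 2.44e-06), to its relative LOXL3 (log2 0.73, adjusted p = 0.000781). With miR-133a 5 were lower, led by P3H2 (log2 -0.67, adjusted p = 0.0033), and with miR-155 1 was lower and 2 higher.

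Among 14 tested partners of the basement membrane, 6 were called with miR-1, all lower, led by SPARC, a collagen-binding glycoprotein (log2 -0.76, adjusted p = 1.35e-05). With miR-133a 3 were lower, led by the nidogen NID2 (log2 -0.79, adjusted p = 0.00343), and with miR-155 3, led by peroxidasin, PXDN, which crosslinks type IV collagen (log2 -0.72, adjusted p = 0.00486). With miR-122, FN1, fibronectin, was among 2 lower genes (log2 -0.39, adjusted p = 0.000729), while NPNT, nephronectin, was among 2 higher ones (log2 0.20, adjusted p = 0.0346). For the mean of the seed family 2 were lower, led by NTN4 (log2 -0.45, adjusted p = 0.00961).

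Non-integrin receptors showed 1 gene in common. CD44, a receptor for hyaluronan that also binds collagen, was the lowest called gene of its 14 tested list with miR-1 (log2 -1.01, adjusted p = 1.62e-06), miR-122 (log2 -0.64, adjusted p = 0.000495), miR-155 (log2 -0.83, adjusted p = 0.00604) and for the mean of the seed family (log2 -0.85, adjusted p = 0.000295). Of that list 8 were called with miR-1, all lower, and 3 with miR-122, 3 with miR-133a, 1 with miR-155 and 4 for the mean of the seed family. Of 43 tested adaptors that link integrins to actin, 14 (32.6%, beside 24.5% of all genes) were called with miR-1, 9 lower and 5 higher, from TGFB1I1 (log2 -1.12, adjusted p = 2.46e-05) to vinculin, VCL (log2 0.25, adjusted p = 0.000231). With miR-122 and miR-133a 2 each were called, all lower, with miR-155 3, led by the tensin TNS3 (log2 -1.12, adjusted p = 0.00116), and for the mean of the seed family 4, from the kindlin FERMT1 (log2 -0.79, adjusted p = 0.000483) to zyxin, ZYX (log2 0.38, adjusted p = 0.00269). Of the matrix proteases and their inhibitors, 19 were tested in batch 1 and 21 in batch 2. With miR-1 7 were lower, led by ADAM12 (log2 -1.26, adjusted p = 0.000125), and with miR-122 1 was lower, MMP2 (log2 -0.45, adjusted p = 0.0191), and 2 higher. RECK, a membrane inhibitor of matrix metalloproteinases, was the lowest called gene with miR-133a (log2 -0.72, adjusted p = 0.00234) and for the mean of the seed family (log2 -0.63, adjusted p = 0.000373), where 3 were lower and 2 higher, and with miR-155 1 was lower and 1 higher.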

How the data were processed

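Reads of 24 polyadenylated RNA libraries were trimmed, aligned to hg19 with TopHat 2.1.1 and counted over exons on the sense strand with featureCounts by the authors, and the deposited values are raw counts per gene. The authors' comparison tables, with their own edgeR 3.24.3 fold changes, p-values and FDR, were not used. Groups and replicates came from the sample labels. Each batch was fitted by itself over all its groups with edgeR 4.0.16 in R 4.3.3 (filterByExpr with a minimum count of 10, TMM, quasi-likelihood F test, prior count 0.125), and the Benjamini-Hochberg adjustment covered every gene tested, with a threshold of 0.05. SE is the absolute log2 fold change divided by the square root of F, and CPM uses TMM-scaled library sizes. Alternatives were DESeq2 1.42.0, its size factors, other filters, only the groups compared, a replicate block, GC content and length offsets, and leaving out libraries. The fits were tested on simulated data with log2 changes of 0.5 and 1 in either direction. In the miR-1 design 85.7% of 98 and 92.9% of 99 changed genes were called, and so were 19 unchanged genes. Those 19 were a larger share of the calls than the threshold of 0.05 aims at. In the miR-133a design 60% and 81% of 100 changed genes each were called, with 1 unchanged gene.

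Ensembl identifiers were matched to symbols, exons and 3′UTRs of GENCODE release 44 mapped to GRCh37, which may differ from the annotation used for counting, and 27 of the 77 members overlap another gene on the same strand, so their reads may be shared. Same-numbered replicates deviated together in all 3 pairs for miR-133a with miR-155 (r = 0.295, 0.508 and 0.34 across genes) and miR-302a with miR-372 (0.267, 0.335 and 0.162). For miR-373, r was also above 0 in all 3 pairs with its empty vector (0.42, 0.25 and 0.052) and with miR-372 (0.033, 0.35 and 0.6). With miR-302a it was -0.012, 0.694 and 0.485.

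The members, gene lists and tests were chosen with earlier results of these data known. Full statistics are given for members among the 3 lowest or 3 highest called in a comparison with empty vector or called in at least 3 of the 7, other called members and those with an 8mer may be named with a fold change and adjusted p, and the 5 highest per length and the lowest and highest called gene of each list are named. Other named members were chosen after their values were seen. The results of 1 member are not reported here by name, though it is included in the counts.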

Additional observations from a re-analysis of the deposited data

How the results depend on the processing

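The number of members called moved between settings, and so did the balance of lower and higher calls, though no call changed its sign. With miR-122, 6 lower and 2 higher calls became 6 and 10 with GC content and length offsets (5.92% and 8.54% of all genes). With miR-302a, 9 and 2 became 17 and 11 without the 3 libraries that stood apart (7.88% and 24.2%). With miR-133a the calls there stayed mostly lower, 18 and 1 (16.1%). The shares of all genes called are given in parentheses, in the same order. DESeq2's Wald test called 16 members with miR-1, 3 with miR-122 and 12 with miR-133a (12.4%, 2.86% and 7.26% of all genes). GC content and length offsets, chosen after seeing the data, gave 16 with miR-122, 11 with miR-133a and 13 with miR-155 (8.54%, 7.89% and 10.4%). Without a filter on low counts, 16, 17 and 18 were called with miR-133a, miR-155 and miR-302a (4.21%, 6.3% and 5.43%, of more genes tested). When only the groups compared were fitted, 24, 17 and 17 were called with miR-133a, miR-302a and miR-373 (17.3%, 7.55% and 7.77%). Without the 3 libraries that stood apart, also chosen after seeing the data, counts were 19 with miR-133a, 28 with miR-302a, 23 with miR-373, 34 for the seed family mean and 23 between miR-133a and miR-155 (16.1%, 24.2%, 12%, 27% and 23.9%).

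With the replicate number as a block, 12 were called with miR-133a, 15 with miR-155, 21 with miR-302a and 16 with miR-373 (9.31%, 11.8%, 11.7% and 7.98%). The block together with the GC content and length offsets gave 19 with miR-133a, 17 with miR-155, 21 with miR-302a, 29 with miR-372, 24 with miR-373, 30 for the seed family mean and 26 between miR-133a and miR-155 (14.9%, 16.5%, 16%, 21.5%, 12.9%, 26.6% and 29.7%). In comparisons whose same-numbered libraries did not deviate together, samples may share only a number. A crossed pairing of miR-1 and its controls, whose same-numbered deviations had r = -0.141, gave 29 calls against 25 with the block as numbered (31% and 20.5%).

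Leaving out 1 library gave 18 to 28 calls with miR-1, 3 to 14 with miR-122, 6 to 7 with miR-133a, 3 to 8 with miR-155, 8 to 14 with miR-302a, 10 to 21 with miR-372, 4 to 8 with miR-373, 12 to 25 for the seed family mean, 19 to 25 between miR-1 and miR-122, 10 to 15 between miR-133a and miR-155, and 26 to 32 between the seed family and the mean of the other 2. In batch 2, the shares of all genes at the lowest and highest counts were 3.38% and 12.4% with miR-302a and 6.03% and 12.9% with miR-372. With miR-133a, miR-155 and miR-373 the lowest counts stood beside 2.63%, 3.62% and 2.94%. Their highest, reached in several fits, stood beside 2.86% to 3.45%, 5.67% to 6.98% and 2.94% to 3.54%. For the seed family mean the shares were 8.13% and 15.7%. Between miR-133a and miR-155 they were 11.1% and 13.5%, and between the seed family and the mean of the other 2 they were 23.1% and 25.6%. In batch 1 a group was left with 1 library, so the ranges with miR-1 and between miR-1 and miR-122 are not read against all genes. The causes were not tested. Of the 88 calls against empty vector, DESeq2 lost 16, the groups compared alone 6, the offsets 4 and the block 3, and none changed sign. Sign changes were seen only among values not called. With 1 library left out, the log2 change ran from -0.1585 to 0.4181 for COL12A1 with miR-1, -0.0074 to 0.0971 for COL4A5 with miR-122, -0.1338 to 0.1209 for COL4A5 with miR-155, -0.0113 to 0.154 for ITGA1 with miR-155, -0.0951 to 0.0025 for ITGA2 with miR-133a, -0.1087 to 0.0241 for LAMA4 with miR-122, -0.0663 to 0.1066 for LAMC1 with miR-302a and -0.0302 to 0.1503 for LAMC1 with miR-372. With the offsets, without and with the block, it was 0.1193 and 0.1149 for COL4A5 with miR-155, 0.0802 and 0.0809 for ITGA2 with miR-133a, 0.0051 and 0.0051 for ITGA8 with miR-155, 0.0207 and 0.0207 for LAMA4 with miR-122, and 0.0328 and 0.0319 for LAMA4 with miR-155. Without the 3 libraries that stood apart it was 0.1206 for COL4A5 with miR-155 and -0.0666 for LAMC1 with miR-302a.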
